A study of Mus musculus with 8 samples.

Results

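Imprinted genes, together with Zfp57 and Trim28, which guard the imprints, were followed in testes that lack Ing2. The 44 genes are known mouse imprinted genes, listed by cluster, with both factors added, and were chosen with earlier results of these data known. Of them, 40 had a probe set of their own among the 19938 genes so measured. H19 had no probe set under its symbol, and Snrpn, Ube3a and Gnas shared theirs with other symbols, so these 4 genes were not analysed here. Levels of total RNA from whole testis were compared between Ing2-/- mice (n = 5) and Ing2+/+ littermates (n = 3), all males at 2 to 3 months of age, with 1 array per mouse and none pooled. The Ing2-/- mice carried a germline deletion of exon 2 made by EIIa-Cre, from an allele targeted in embryonic stem cells of another strain than C57BL/6J. They were bred with C57BL/6J mice to remove the Cre, and heterozygotes were then intercrossed, so the background of both genotypes was mixed. The labels do not say which mice shared a litter. In bulk RNA, fewer cells of a type and less RNA per cell cannot be told apart, and an array reads the sum of both alleles, so neither allelic expression nor methylation was measured.

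Imprinted genes are transcribed mainly or only from the copy inherited from 1 parent, and many lie in clusters controlled by a region that is methylated on 1 parental copy. The methyl marks are erased in germ cells, laid down anew according to the sex of the germ line, and kept in the embryo by ZFP57, a zinc finger protein that binds a methylated motif, with its cofactor TRIM28. Imprinting of several of the genes is known only in some tissues, such as placenta or brain. Male germ cells at and past the erasure of the marks need not show the expression of a single copy.

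Of the 40 measured genes, 1 was called higher in Ing2-/- testes, against 1.97% of all genes, and 3 were called lower, against 3.01% of all genes. A call is a Benjamini-Hochberg adjusted p under 0.05 from limma over all probe sets. The higher gene was Meg3, a long noncoding RNA. The lower genes were Asb4, an ankyrin repeat and SOCS box protein known as a substrate adaptor of ubiquitin ligases, Slc22a18, a transporter of the organic cation family, and Zfp57. Asb4 and Zfp57 were also on gene lists that the study drew from these same testes, so their calls are not independent evidence. Of the 38 other measured genes, 1 was called higher and 1 lower. The median log2 fold change of the 40 genes was 0.06, and that of all genes was 0.02. Each log2 fold change is the mean of Ing2-/- testes less the mean of Ing2+/+ testes.

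**Figure D1:**
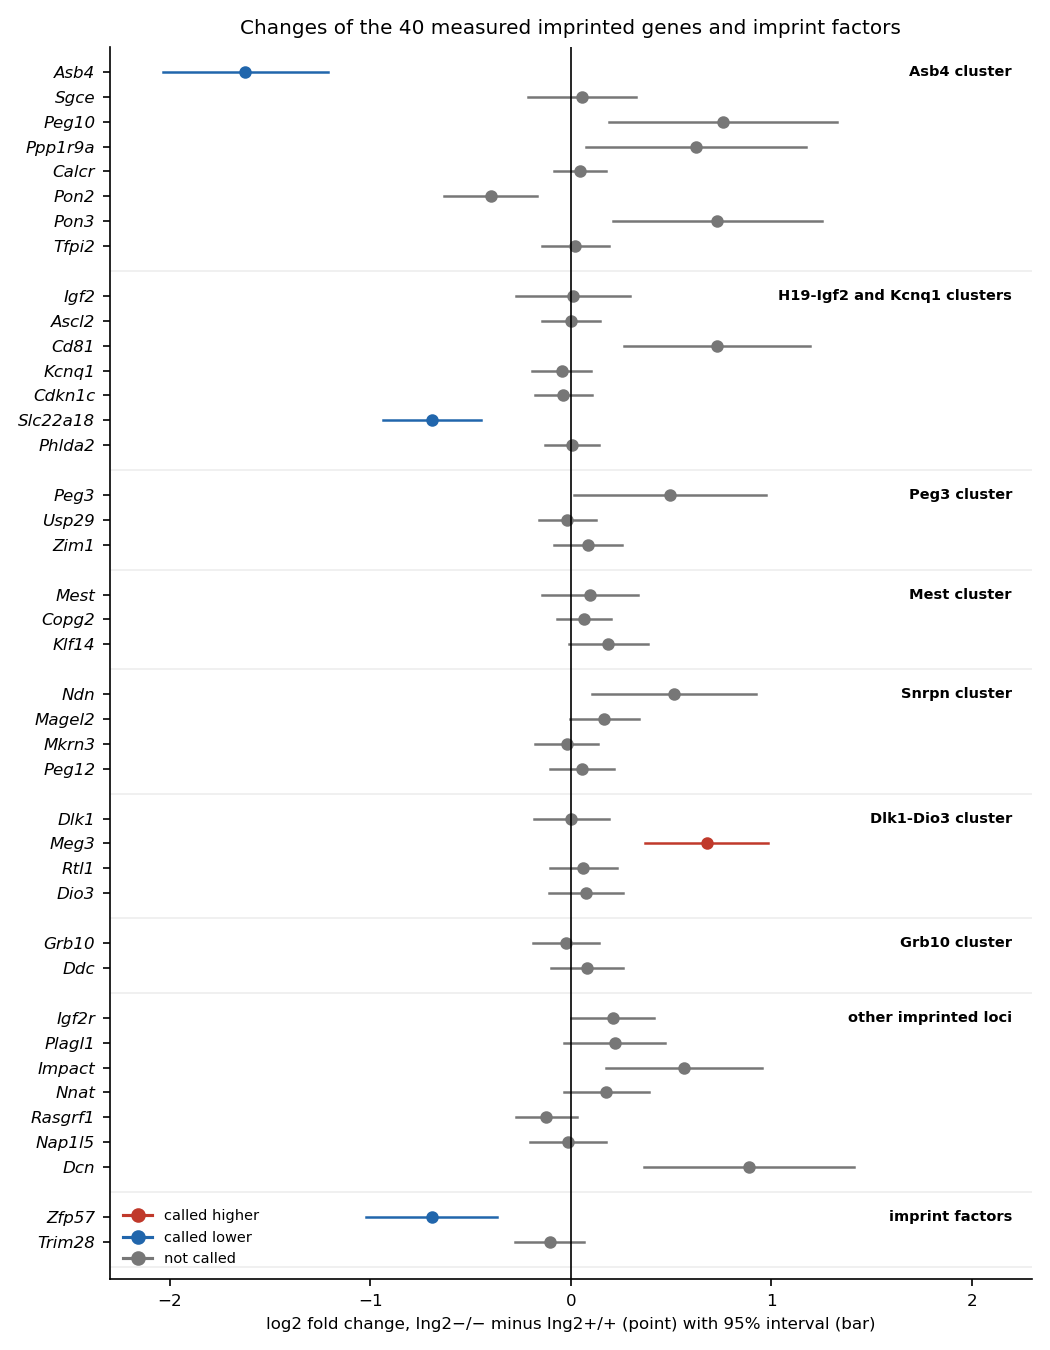
Log2 fold change (horizontal axis, point) with its 95% interval (bar) of each of the 40 measured genes, grouped by imprinted cluster, with called genes in colour. Asb4 lies farthest to the left, and Slc22a18, Zfp57 and Meg3 are the other called genes.

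By the weaker measure of separation, all 5 Ing2-/- arrays lay above all 3 Ing2+/+ arrays for 10 of the 40 genes, against 16.7% of all genes, and below them for 4 of the 40, against 14.9% of all genes. The 10 were Peg10, Ppp1r9a, Pon3, Cd81, Peg3, Ndn, Magel2, Meg3, Impact and Dcn. The 4 were Asb4, Pon2, Slc22a18 and Zfp57. Of the 19 measured genes usually expressed from the maternal copy, limma called 1 higher and 2 lower, and 6 were higher and 3 lower at an unadjusted p under 0.05. Of the 18 usually expressed from the paternal copy, limma called 0, and 4 were higher and 0 lower at an unadjusted p under 0.05. Of all genes, limma called 1.97% higher and 3.01% lower, and 16.5% were higher and 13.5% lower at that unadjusted p. Whether the 2 classes differed was not tested.

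The arrays themselves differed in ways that touch these genes. Ing2, the deleted gene, was at 5.06, 5.64, 5.21, 5.29 and 5.25 (RMA level, log2) in the Ing2-/- testes, against 7.43, 7.60 and 7.34 in the Ing2+/+ testes, so every array matched its label. The sources do not state whether its probes lie in the deleted exon. Array medians were 6.46 to 6.53 in Ing2-/- testes and 6.41 to 6.45 in Ing2+/+ testes. The mean correlation of an array with the others of its genotype, taken over all probe sets, was 0.983 for Ing2-/- replicate 3, the lowest of all arrays. Markers of cell types were scored as the mean log2 level of a list minus that of the Ing2+/+ arrays. The Sertoli cell list (16 genes) scored 0.33 to 1.19 in Ing2-/- testes and -0.01 to 0.01 in Ing2+/+ testes, and the Leydig cell list (9 measured genes) 0.27 to 1.13 and -0.06 to 0.04. The round spermatid list (12 genes) scored -0.87 to -0.14 in Ing2-/- testes and -0.03 to 0.02 in Ing2+/+ testes. Replicate 3 gave the most extreme score in each of these 3 lists. All 12 pachytene spermatocyte, 13 elongating spermatid and 16 Sertoli markers lay above the median of probe sets without a symbol on every array, and 4 of 6 measured epididymis markers lay below it on every array. The epididymis marker Adam7 was at 6.80 in Ing2-/- replicate 4 and 5.31 in replicate 2. It was at 4.16 to 4.62 in the other Ing2-/- testes and 4.18 to 4.32 in Ing2+/+ testes. The part of the cell mix in the results below was not tested.

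Asb4 lies at the end of a cluster on chromosome 6 whose listed genes run in the order Calcr, Tfpi2, Sgce, Peg10, Ppp1r9a, Pon3, Pon2 and Asb4. Peg10, derived from a retrotransposon and required in the placenta, and Sgce, a sarcoglycan, are expressed from the paternal copy. Asb4, the neurabin gene Ppp1r9a, the paraoxonases Pon2 and Pon3, the calcitonin receptor gene Calcr and the protease inhibitor gene Tfpi2 are known as maternally expressed, several of them only in some tissues. The sequences of 250 bases before the RefSeq starts of Asb4, before that of its neighbour Pon2 and before the first start of Meg3 are shown, since Asb4 and Meg3 were called in opposite directions and Pon2 is the listed gene nearest to Asb4. They are RefSeq sequences of GRCm38.p6, read 5′ to 3′ on the strand of the gene, and capitals mark CpG dinucleotides, the sites of the methyl marks. Asb4 start 1 is chr6:5383136-5383385 (+), Asb4 start 2 is chr6:5390160-5390409 (+), Pon2 is chr6:5298341-5298590 (-) and Meg3 start 1 is chr12:109540746-109540995 (+).
Asb4 start 1: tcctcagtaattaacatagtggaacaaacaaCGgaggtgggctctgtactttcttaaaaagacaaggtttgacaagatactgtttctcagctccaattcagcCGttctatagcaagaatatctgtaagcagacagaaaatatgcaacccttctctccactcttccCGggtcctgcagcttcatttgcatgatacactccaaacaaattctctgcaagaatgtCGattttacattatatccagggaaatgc
Asb4 start 2: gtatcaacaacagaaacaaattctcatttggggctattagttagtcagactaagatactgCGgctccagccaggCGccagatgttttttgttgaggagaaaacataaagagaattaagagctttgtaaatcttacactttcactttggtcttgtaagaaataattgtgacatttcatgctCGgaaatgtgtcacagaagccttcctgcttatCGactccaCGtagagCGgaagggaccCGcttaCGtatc
Pon2: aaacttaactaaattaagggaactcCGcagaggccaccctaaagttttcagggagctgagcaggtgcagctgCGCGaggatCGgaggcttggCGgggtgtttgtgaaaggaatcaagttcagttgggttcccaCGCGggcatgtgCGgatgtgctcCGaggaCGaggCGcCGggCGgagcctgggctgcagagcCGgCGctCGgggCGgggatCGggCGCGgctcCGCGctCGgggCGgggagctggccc
Meg3 start 1: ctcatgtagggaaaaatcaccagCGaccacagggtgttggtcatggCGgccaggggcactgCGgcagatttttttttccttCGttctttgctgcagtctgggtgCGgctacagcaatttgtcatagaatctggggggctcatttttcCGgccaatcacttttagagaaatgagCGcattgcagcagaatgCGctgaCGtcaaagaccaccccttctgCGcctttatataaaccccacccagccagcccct

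The windows differ in their CpG content. The Asb4 windows held 4 and 8 CpG, the Pon2 window 24 and the Meg3 windows 10 at the start shown and 0 at the other, where the median was 6 over the 32851 windows of all genes. The 6 windows of the 3 lower genes (2 of Asb4, 1 of Slc22a18 and 3 of Zfp57) held 0 to 8 CpG. Of all windows, 59.7% held no more than 8, as did 21 of the 50 other windows of listed genes, so a low count was common. The hexamer TGCCGC, the core of the motif that ZFP57 binds when it is methylated, was searched on both strands, and it contains 1 CpG itself. It was in 10 of the 56 windows of listed genes, or 17.9%, against 8.68% of all windows, and windows of listed genes were also richer in CpG (median 10). No window of Asb4, Slc22a18, Zfp57 or Pon2 held these letters, the first Meg3 window held them once and the second did not. A match is a description of the letters, not of binding. Which windows overlap imprinting control regions was not examined.

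Asb4 was lower in every Ing2-/- testis. Its levels were 7.03, 6.77, 6.12, 6.43 and 6.77 (log2) in Ing2-/- testes, against 8.24, 8.27 and 8.23 in Ing2+/+ testes. The genotypes did not overlap, the Ing2+/+ values lay within 0.1 of each other, and replicate 3 was the lowest Ing2-/- testis. The log2 fold change was -1.62 ± 0.18 (SE; 95% interval -2.04 to -1.21; limma adjusted p = 0.0068), a 3.08-fold lower level. By log2 fold change it ranked 6 from the lowest of all genes. Without replicate 3 the change was -1.50 (limma adjusted p = 0.0020). Without Ing2+/+ replicate 1 or 2 it was -1.63 and -1.61, with limma adjusted p of 0.051 and 0.054, which miss the threshold.

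**Figure D2:**
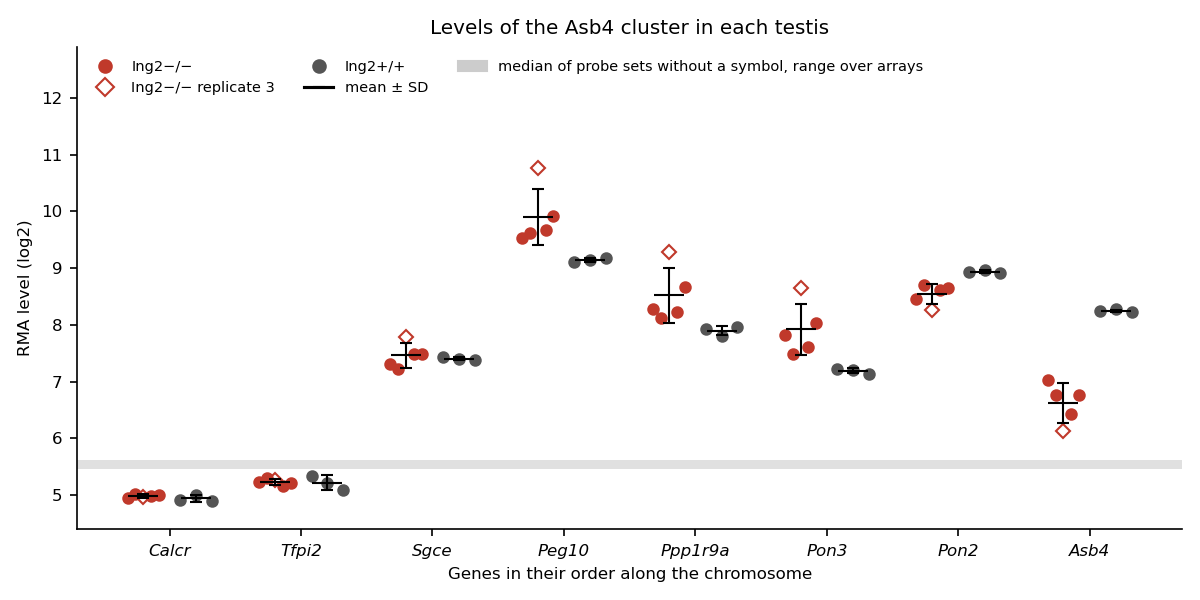
RMA level (log2, vertical axis) of the 8 genes of the Asb4 cluster in chromosome order, each point 1 testis, with mean and SD. Ing2-/- testes stand left of Ing2+/+ testes for each gene, replicate 3 is drawn as an open diamond, and Asb4 alone was called. Levels of different genes come from different probes and are not compared.

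None of the other 7 listed genes of the cluster was called by limma, and their values ran in both directions, with 3 higher and 1 lower at an unadjusted p under 0.05 (16.5% and 13.5% of all genes). Pon2, the nearest, was at 8.46, 8.71, 8.27, 8.62 and 8.65 in Ing2-/- testes, against 8.93, 8.98 and 8.92 in Ing2+/+ testes. All Ing2-/- arrays were below all Ing2+/+ arrays, with a log2 fold change of -0.40 ± 0.10 (SE) and a limma adjusted p of 0.057. Pon3, next in the row, was at 7.82, 7.49, 8.65, 7.61 and 8.03 in Ing2-/- testes, against 7.22, 7.21 and 7.14 in Ing2+/+ testes (log2 fold change 0.73 ± 0.23, limma adjusted p = 0.090). The paraoxonases, neighbours of the same family, thus gave values of opposite sign, neither of them past the threshold. Pon2 was called lower in 5 of 18 alternatives, with adjusted p of 0.045 after cyclic loess, 0.042 with only probe sets of 1 symbol, 0.043 with only those above the median level and 0.012 with array weights, besides the fit without replicate 3. In these 5 fits 4.52% to 9.28% of all genes were called lower, against 3.01% as reported.

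Peg10 gave 9.54, 9.63, 10.76, 9.68 and 9.92 in Ing2-/- testes, against 9.11, 9.15 and 9.17 in Ing2+/+ testes. The log2 fold change was 0.76 ± 0.25 (limma adjusted p = 0.10), and replicate 3 stood well above the other Ing2-/- testes. Ppp1r9a also had its highest level in replicate 3, with 8.28, 8.12, 9.29, 8.24 and 8.67 in Ing2-/- testes, against 7.92, 7.80 and 7.96 in Ing2+/+ testes (log2 fold change 0.63 ± 0.24, limma adjusted p = 0.14). Sgce overlapped between genotypes, with 7.22 to 7.79 in Ing2-/- testes and 7.39 to 7.44 in Ing2+/+ testes. Calcr and Tfpi2 lay below the median of probe sets without a symbol on every array, at log2 fold changes of 0.05 and 0.02. Without replicate 3, Peg10 (0.54, limma adjusted p = 0.011), Pon3 (0.55, adjusted p = 0.023) and Pon2 (-0.33, adjusted p = 0.021) were called, when 8.72% of all genes were called higher and 7.76% lower.

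Because a call in 1 gene and none in another does not show that they differ, Asb4 was set against each neighbour within the same array. The difference between Asb4 and its neighbour was lower in all 5 Ing2-/- testes than in all 3 Ing2+/+ testes for each of the 7 neighbours. Calcr and Tfpi2 lay below the median of probe sets without a symbol, so the differences from these neighbours repeat the change of Asb4 itself, and the comparison rests on the other 5. Against Pon2, Asb4 minus Pon2 was -1.43, -1.93, -2.15, -2.19 and -1.88 in Ing2-/- testes, and -0.69, -0.70 and -0.68 in Ing2+/+ testes. The genotypes thus differed by -1.22 in that quantity, the smallest of the 7. The largest was against Peg10, at -2.38, with Pon3 at -2.36, Ppp1r9a at -2.25, Sgce at -1.68, Calcr at -1.67 and Tfpi2 at -1.65. Asb4 minus Peg10 was -4.64 in replicate 3 and -3.25 to -2.50 in the other Ing2-/- testes. Replicate 3 was also the lowest against Pon3, Ppp1r9a, Sgce, Calcr and Tfpi2, while replicate 4 was the lowest against Pon2. The exact two-sided permutation test gave p = 0.018 for each neighbour, also after adjustment over the 7, and that is the smallest p the 56 splits of 8 arrays allow. All 7 share the Asb4 values and so are not independent of each other. Asb4 was also on a gene list drawn from these same testes, and its own genotypes lay apart. Its separation from neighbours that changed less, or the other way, was thus largely set beforehand. The test is therefore not independent evidence, and the gaps are a description.

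**Figure D3:**
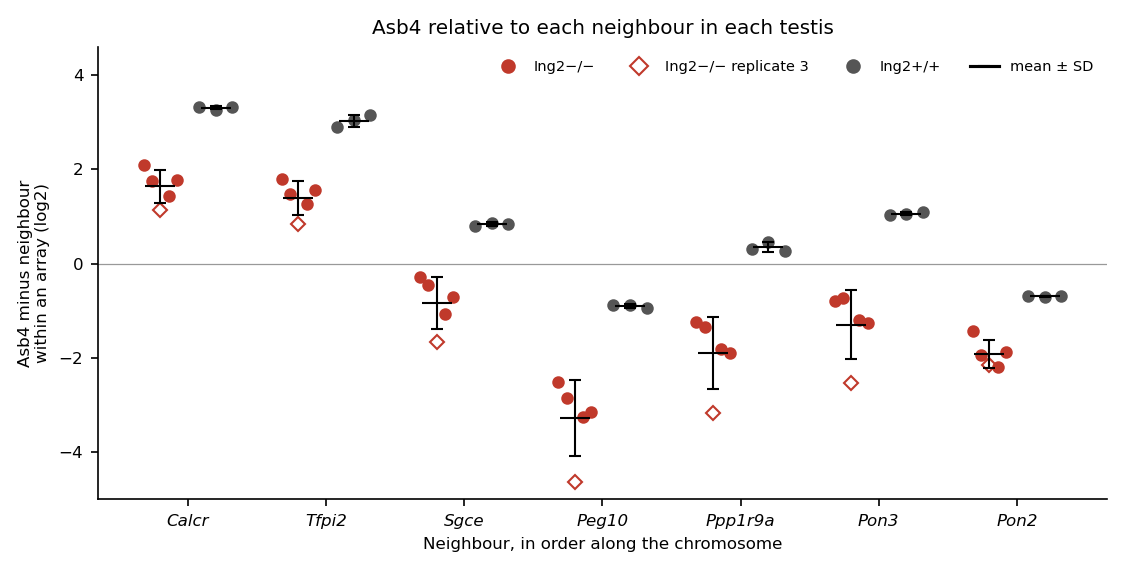
Asb4 level minus that of each neighbour within an array (log2, vertical axis), 1 point per testis, Ing2-/- left of Ing2+/+, with mean and SD. For every neighbour the 5 Ing2-/- testes lie below the 3 Ing2+/+ testes, by -1.22 (Pon2) to -2.38 (Peg10) in the mean. The height of a pair of groups depends on the probes, and only the gap between genotypes carries meaning.

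Zfp57, which is not itself imprinted, was lower as well. It was at 7.47, 7.49, 6.98, 7.67 and 7.22 in Ing2-/- testes, against 8.13, 8.0 and 8.05 in Ing2+/+ testes. The genotypes did not overlap, and replicate 3 was again the lowest. The log2 fold change was -0.70 ± 0.14 (SE; 95% interval -1.02 to -0.37; limma adjusted p = 0.037), and Zfp57 ranked 358 from the lowest of all genes. Its cofactor Trim28 overlapped between genotypes, with 10.53 to 10.76 in Ing2-/- testes and 10.68 to 10.87 in Ing2+/+ testes (log2 fold change -0.11, 95% interval -0.28 to 0.07). The Zfp57 call was lost when any array but Ing2-/- replicate 3 or 4 was left out, with limma adjusted p of 0.053 to 0.15 and changes of -0.73 to -0.66.

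Around Igf2 and Kcnq1, Slc22a18 was the called gene of 7 measured. Its levels were 6.97, 6.99, 6.68, 6.66 and 6.97 in Ing2-/- testes, against 7.41, 7.56 and 7.67 in Ing2+/+ testes. Here replicate 4 and not replicate 3 was the lowest, and the genotypes did not overlap. The log2 fold change was -0.69 ± 0.11 (SE; 95% interval -0.94 to -0.45; limma adjusted p = 0.017), and the call was lost without any 1 of the Ing2+/+ arrays (adjusted p 0.062 to 0.089). Cd81, which encodes a tetraspanin of the cell surface, moved the other way without passing the test, at 10.42, 10.47, 11.34, 10.41 and 10.70 in Ing2-/- testes, against 9.81, 9.99 and 10.02 in Ing2+/+ testes (log2 fold change 0.73 ± 0.20, limma adjusted p = 0.071).

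The other 5 genes there were close to 0. Igf2, the fetal growth factor, had a log2 fold change of 0.01 with a 95% interval of -0.28 to 0.30. The interval was narrower for Cdkn1c, a brake on the cell cycle (-0.04, -0.18 to 0.10), for the potassium channel gene Kcnq1 (-0.05, -0.19 to 0.10) and for the placental growth regulator Phlda2 (0.00, -0.13 to 0.14). Ascl2, a transcription factor of the trophoblast, averaged 5.55 ± 0.05 in Ing2-/- testes and 5.55 ± 0.08 in Ing2+/+ testes (SD, n = 5 and 3), near the median of probe sets without a symbol. These intervals leave room for small changes in either direction.

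Meg3, transcribed from the maternal copy at the Dlk1-Dio3 cluster, was the called gene of that cluster. It stood at 7.18, 7.49, 7.46, 6.90 and 7.43 in Ing2-/- testes, against 6.63, 6.64 and 6.59 in Ing2+/+ testes. The genotypes did not overlap, and replicate 2 was the highest and replicate 4 the nearest to the Ing2+/+ testes. The log2 fold change was 0.68 ± 0.14 (SE; 95% interval 0.37 to 0.98; limma adjusted p = 0.033), and it was 0.63 (adjusted p = 0.021) without replicate 3. The call was lost when Ing2-/- replicate 1, 2 or 5 or any Ing2+/+ array was left out. The paternally expressed genes of the cluster were near 0, with log2 fold changes of 0.00 for Dlk1, a membrane protein related to Notch ligands, 0.06 for the retrotransposon-derived Rtl1 and 0.08 for the thyroid hormone deiodinase Dio3. Whether the Meg3 change differed from theirs was not tested, and Dio3 lay below the median of probe sets without a symbol on every array.

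The remaining imprinted genes measured were those of the Peg3 (3), Mest (3), Snrpn (4) and Grb10 (2) clusters and of other loci (7). None of these genes was called by limma, though 5 were higher at an unadjusted p under 0.05 (16.5% of all genes). Of the same genes, 5 had genotypes that did not overlap, all higher (16.7% of all genes). Dcn, which encodes the matrix proteoglycan decorin, had the largest value, at 9.85, 9.73, 10.76, 9.78 and 10.42 in Ing2-/- testes, against 9.30, 9.20 and 9.17 in Ing2+/+ testes (log2 fold change 0.89 ± 0.23, limma adjusted p = 0.061). Impact, a regulator of the GCN2 kinase in translation, was at 8.23, 8.12, 8.96, 8.33 and 8.51 in Ing2-/- testes, against 7.92, 7.82 and 7.87 in Ing2+/+ testes (0.56 ± 0.17, adjusted p = 0.085). In both genes replicate 3 was the highest and replicate 5 the next.

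Both MAGE family genes measured from the Snrpn cluster, Ndn and Magel2, also lay higher in every Ing2-/- testis without passing limma's test. Ndn was at 6.79, 6.81, 7.58, 6.82 and 7.20 in Ing2-/- testes, against 6.59, 6.58 and 6.41 in Ing2+/+ testes (log2 fold change 0.51, adjusted p = 0.11). Magel2 differed by 0.17 (adjusted p = 0.19), with 5.91 to 6.20 in Ing2-/- testes and 5.81 to 5.90 in Ing2+/+ testes. Peg3, a large zinc finger protein gene, was at 6.81, 6.63, 7.61, 6.60 and 6.81 in Ing2-/- testes, against 6.49, 6.33 and 6.38 in Ing2+/+ testes, with replicate 3 far above the rest (0.49, adjusted p = 0.17). Without replicate 3, Dcn (0.73, adjusted p = 0.023), Impact (0.43, adjusted p = 0.023), Peg3 (0.32, adjusted p = 0.033) and Cd81 (0.56, adjusted p = 0.010) were called by limma. In that fit 8.72% of all genes were called higher.

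The other genes overlapped between genotypes. The growth receptor gene Igf2r (0.21, 95% interval 0.00 to 0.41), the zinc finger regulator Plagl1 (0.22, -0.03 to 0.47), neuronatin (Nnat, 0.18, -0.04 to 0.39) and Klf14, a transcription factor of the Mest cluster (0.19, -0.01 to 0.38), had the highest values among them. Rasgrf1, an exchange factor for Ras, had the lowest at -0.12 (-0.28 to 0.03). The hydrolase-like gene Mest (0.09), the coatomer subunit gene Copg2 (0.07), the insulin receptor adaptor Grb10 (-0.03), Peg12 (0.06) and Nap1l5 (-0.01) were near 0. Usp29, Zim1, Mkrn3 and Ddc lay below the median of probe sets without a symbol on every array, as did 7 of the 40 genes in all, so little can be read from them.

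Replicate 3 gave the largest deviation in most of the genes whose genotypes did not overlap. It was the highest Ing2-/- testis for 9 of the 10 higher genes, with Meg3 as the exception, and the lowest for 3 of the 4 lower genes, with Slc22a18 as the exception. How often replicate 3 was the most extreme over all genes was not counted. Its mean correlation with its genotype over all probe sets was the lowest (0.983), so this cannot be read as a trait of these genes. In the same testis the Sertoli score was 1.19, against 0.33 to 0.58 in the other Ing2-/- testes, and the Leydig score 1.13, against 0.27 to 0.77. The fibroblast and stroma score, from 9 genes of which 7 lay above the median of probe sets without a symbol on every array, was 0.68 there and 0.14 to 0.45 in the others, and the round spermatid score -0.87 there and -0.32 to -0.14 in the others. The part of the cell mix in each value was not tested.

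**Figure D4:**
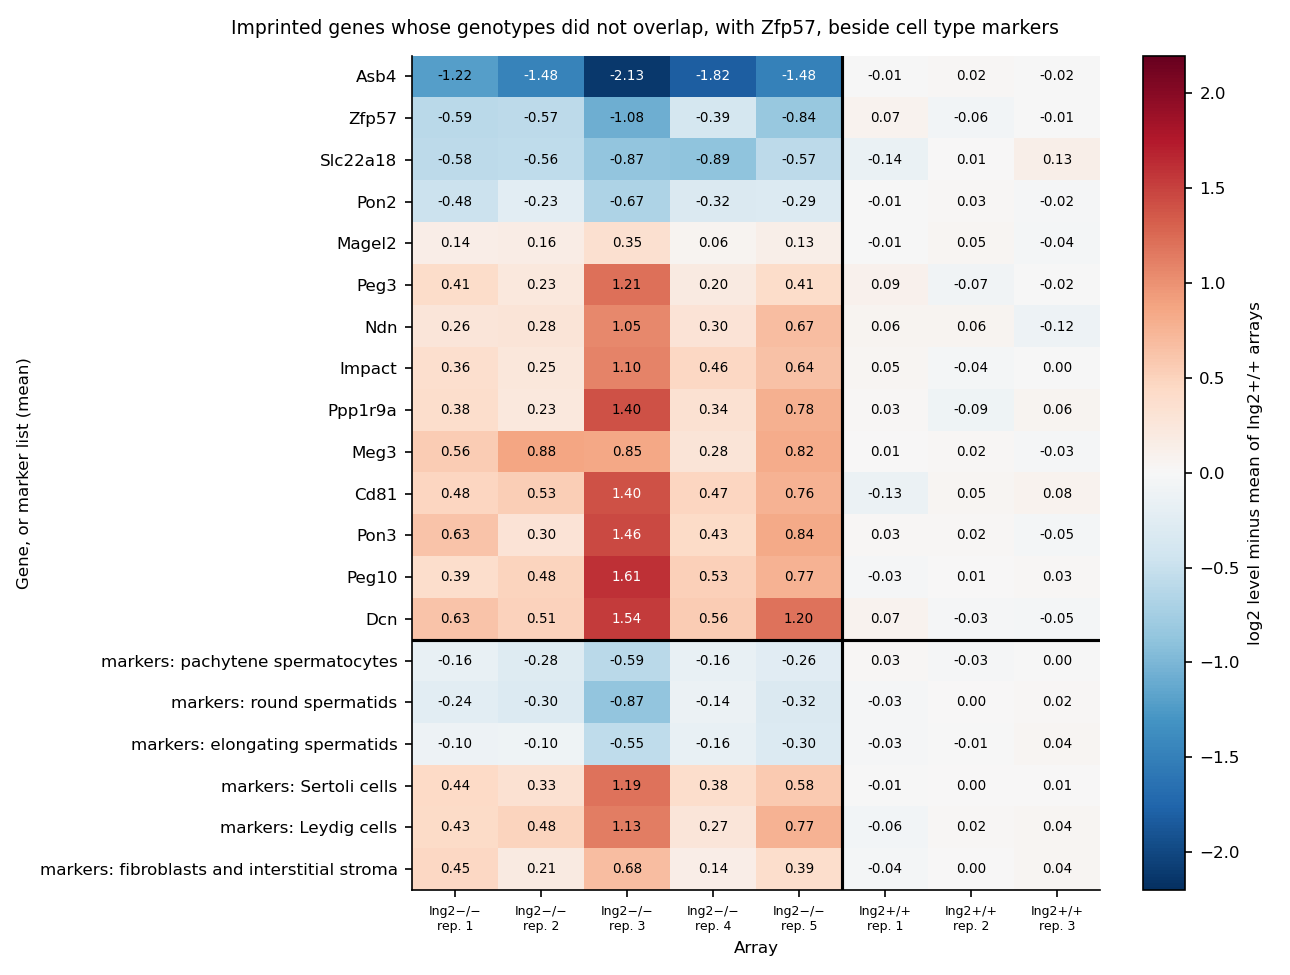
Deviation of each array (columns) from the mean of the Ing2+/+ arrays (log2, colour and number) for the 14 genes whose genotypes did not overlap and for 6 cell type marker lists (mean of their genes). Ing2-/- replicate 3 has the deepest colours in most rows, with Sertoli markers at 1.19 and round spermatid markers at -0.87, and Asb4 lies between -2.13 and -1.22 in all Ing2-/- testes.

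Genes that lay down, read or remove DNA methylation or keep imprints were taken as a second list. All 21 were measured, and limma called 0 of them, with 9 higher and 1 lower at an unadjusted p under 0.05, against 16.5% and 13.5% of all genes. Array weights called 5 higher and 1 lower, when they called 11.3% and 9.28% of all genes. The smallest p values belonged to Uhrf1, which brings DNMT1 to newly copied DNA, and to the H3K9 methyltransferase gene Setdb1. Uhrf1 was at 9.34, 9.24, 8.84, 9.29 and 9.13 in Ing2-/- testes, against 9.50, 9.49 and 9.66 in Ing2+/+ testes (log2 fold change -0.38, limma adjusted p = 0.083). Setdb1 was at 9.40, 9.30, 9.28, 9.24 and 9.31 in Ing2-/- testes, against 9.14, 9.08 and 9.13 in Ing2+/+ testes (0.19, adjusted p = 0.094). Both genes kept the genotypes apart, in opposite directions. Of the 21, 7 were higher and 1 lower without overlap, against 16.7% and 14.9% of all genes.

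Among 36 further imprinted genes or their neighbours, 28 were measured. Limma called 1 higher and 2 lower, against 1.97% and 3.01% of all genes. Dlx5, a homeobox gene farther along the chromosome from Asb4, was at 6.67, 6.70, 6.35, 6.72 and 6.73 in Ing2-/- testes, against 7.28, 7.22 and 7.06 in Ing2+/+ testes (log2 fold change -0.55 ± 0.10, limma adjusted p = 0.028). Atp10a, a phospholipid flippase gene, was at 8.59, 8.62, 8.21, 8.88 and 8.40 in Ing2-/- testes, against 9.20, 9.23 and 9.35 in Ing2+/+ testes (-0.72 ± 0.14, adjusted p = 0.028). Blcap, first described in bladder cancer, was at 8.19, 8.25, 8.31, 8.18 and 8.09 in Ing2-/- testes, against 7.86, 7.93 and 7.92 in Ing2+/+ testes (0.30 ± 0.07, adjusted p = 0.045). The genotypes did not overlap in any of the 3. Of the 28, 4 were higher and 4 lower without overlap, against 16.7% and 14.9% of all genes. Dlx5 and Atp10a lost their calls without Ing2-/- replicate 1 or 5 or any 1 Ing2+/+ array (limma adjusted p 0.052 to 0.13 and 0.052 to 0.11). Both also lost them with the replicate number as a block and with an ordinary variance for each probe set. Blcap lost its call without any 1 array other than Ing2-/- replicate 3 (limma adjusted p 0.056 to 0.16). It also lost it when all arrays were shifted to an equal median (0.25, adjusted p = 0.068) and when cyclic loess was applied (0.25, adjusted p = 0.057). The replicate block, the intensity trend with robust estimation and the ordinary variance left it uncalled as well. Blcap was called in 6 of 18 alternatives.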

How the data were processed

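Total RNA of whole testis was labelled and hybridized to Affymetrix Mouse Gene ST arrays. The deposited log2 values are RMA levels that the authors obtained from Affymetrix Expression Console and annotated with NetAffx. RMA subtracts background, gives the arrays 1 shared distribution and combines the probes of each probe set. Each level therefore stands relative to all other RNA in its testis, and a change in RNA per testis leaves no trace. The number of arrays limits the precision. The scanner files were not used here.

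Of 35557 probe sets, 21789 had 1 gene symbol, 1621 several and 12147 none. Symbols of 21698 were updated by gene identifier through the RefSeq table of GRCm38.p6, and the brightest probe set stood for a gene. Each measured listed gene had a single probe set. No covariate entered the comparison of genotypes, which used lmFit and eBayes of limma 3.58.1 (R 4.3.3; prior degrees of freedom 2.85) and adjusted p over all probe sets by Benjamini-Hochberg. Differences between Asb4 and its neighbours were tested by exact permutation. The replicates are separate mice. Genes named in the text are all measured listed genes, Ing2, the epididymis marker Adam7, and of each further list the called genes (up to 4) or the 2 with the smallest p. The parental copy usually expressed was taken from general knowledge of the mouse. The genes and lists were chosen with earlier results of these data known. The fits were tested on simulated data. Alternatives were a replicate block, each array left out, 2 filters, 2 further normalizations, array weights, averaging the probe sets of a gene, and 3 other variance models (that named in the methods, a robust one with an intensity trend, and an ordinary variance for each probe set). Promoter windows were the 250 bases before each start in the RefSeq table, found for 35 of the 44 listed genes. Lists of markers of spermatogonia, peritubular myoid cells, endothelial cells and macrophages scored 0.08 to 0.35, 0.06 to 0.48, 0.10 to 0.24 and 0.14 to 0.43 in Ing2-/- testes, and -0.05 to 0.05 in Ing2+/+ testes. Those of pachytene spermatocytes, elongating spermatids and epididymis scored -0.59 to -0.16, -0.55 to -0.10 and -0.12 to 0.37 in Ing2-/- testes, and -0.03 to 0.04 in Ing2+/+ testes. Plots were made with Python 3.11.15 and matplotlib 3.10.9.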

Additional observations from a re-analysis of the deposited data

Results flagged for a closer look

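In 4 of 46 genes examined, 1 Ing2-/- testis lay far from the other 4 by Dixon's ratio (critical value 0.71 for 5 arrays), where chance flags about 1 in 20. Peg3 was at 7.61 in Ing2-/- replicate 3, against 6.60 to 6.81 in the other Ing2-/- testes. Plagl1 was at 7.03 in the same replicate, against 6.54 to 6.65. Dlx5 was at 6.35 in the same replicate, against 6.67 to 6.73. Dio3 was at 4.87 in Ing2-/- replicate 4, against 5.0 to 5.03, all below the median of probe sets without a symbol.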

How the results depend on the processing

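With the replicate number as a block, limma called 0 listed genes (9 higher and 4 lower at an unadjusted p under 0.05) and 0 of all genes, so Asb4 (-1.61, adjusted p = 0.075) and Zfp57 (-0.75, adjusted p = 0.12) lost their calls, as did Meg3 (0.76, adjusted p = 0.093) and Slc22a18 (-0.67, adjusted p = 0.12). The deviations of same-numbered arrays correlated at -0.06, 0.18 and 0.01, and those of other pairs of arrays at -0.11 to 0.14. So few pairs cannot decide whether the numbers pair the testes, and the labels do not say. Leaving out 1 array gave 0 to 7 genes called higher and 0 to 4 lower. Of all genes, 0.02% to 8.72% were called higher and 0.18% to 7.76% lower in these fits. Asb4 ranged between -1.73 and -1.50 and Zfp57 between -0.77 and -0.60. Among these fits, Asb4 was uncalled only without Ing2+/+ replicate 1 or 2, when 0 listed genes were called (7 higher and 4 lower at an unadjusted p under 0.05). Of all genes, 0.025% and 0.020% were then called higher, and 0.22% and 0.18% lower. Genes called higher, against 1 as reported, numbered 3 with only probe sets above the median level (24 listed genes tested, 5.66% of all genes called higher). They numbered 2 with only probe sets of 1 symbol (3.73%), 9 with array weights (11.3%) and 0 with an ordinary variance for each probe set (0.27%). Under that ordinary variance Asb4 was the 1 listed gene called lower (0.45% of all genes), and Zfp57 was -0.70 (adjusted p = 0.10). Genes called lower numbered 4 in the first 3 of these settings and with cyclic loess, Pon2 being the gene gained. In these settings 5.92%, 4.52%, 9.28% and 4.53% of all genes were called lower, against 3.01% as reported. The causes were not tested. Of all genes called, 39.5% were higher, against 24.2% with cyclic loess, 27.1% with an equal median, 54.9% with array weights and 10% to 52.9% with 1 array left out, highest without Ing2-/- replicate 3 and lowest without Ing2+/+ replicate 2. No called change turned its sign, while 12 uncalled genes did so in at least 1 alternative, at sizes up to 0.07.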
